A study of Mus musculus with 36 samples.

Results

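Farnesol brains differed in how much of their RNA reads fell on the ribosomal RNA gene CT010467.1, and that difference divided the 10 farnesol libraries of this study into a set of 7 and a set of 3. CT010467.1 (ENSMUSG00000106106, chr17:39846353-39848827, minus strand, GRCm38) is typed as ribosomal RNA in GENCODE M21. Farnesol libraries were called high where CT010467.1 took more than 4000 CPM of the library's total count, which holds for libraries 4 to 10, and low where it took less, which holds for libraries 1 to 3. The 10 farnesol libraries are part of 36 whole-brain RNA-seq libraries of wild-type C57BL/6 mice, all taken at day 19, the peak of disease. The other groups were 9 vehicle, 9 untreated and 8 naive libraries.

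Experimental autoimmune encephalomyelitis (EAE) is a model of central nervous system inflammation and demyelination. The farnesol, vehicle and untreated mice all were injected under the skin with the myelin peptide MOG35-55 in an emulsion with complete Freund's adjuvant, and got pertussis toxin that day and the next. Farnesol mice were gavaged daily with trans,trans-farnesol at 100 mg per kg in corn oil. Vehicle mice received corn oil alone, untreated EAE mice received no gavage, and naive mice were healthy. No group received adjuvant and toxin without the peptide, so their effects cannot be told apart from those of EAE. Per the labels' protocols, libraries were built from 1 ug of total RNA with a NEBNext Ultra kit.

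Most RNA in a cell is ribosomal RNA, which carries no long poly(A) tail, and library kits remove it or leave it unselected to varying degree. Small structured RNAs such as 7SK, which holds the transcription elongation factor P-TEFb inactive, also lack a poly(A) tail. Genes with retained or detained introns, among them many splicing factor genes, yield transcripts that stay in the nucleus. Infiltrating immune cells, and the interferon-induced and antigen presentation genes switched on around them, mark the degree of disease in EAE brains.

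The sequences below show how alike the most affected loci are to each other. CT010467.1 is given as the first 150 of the 1849 bases of its transcript (chr17:39848052-39848201, minus strand), which read antisense to the 3′ end of 18S ribosomal RNA. Gm23935 (chr16:11144125-11144181, plus strand) and Gm24270 (chr9:56223715-56223771, minus strand) are annotated as miRNA genes, and their 57 bases are identical. Gm24187 (chr13:9834469-9834525, minus strand) differs from them by G11A, counted from 1 at the 5′ end of Gm23935, and its base there is in capitals. Rn7sk (chr9:78175484-78175633, minus strand), the gene of 7SK, is given as its first 150 of 331 bases. All are from the GENCODE M21 transcripts of GRCm38, written 5′ to 3′.
CT010467.1: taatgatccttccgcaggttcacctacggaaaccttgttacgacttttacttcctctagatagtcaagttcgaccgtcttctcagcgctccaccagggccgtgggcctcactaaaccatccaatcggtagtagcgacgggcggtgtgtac
Gm23935: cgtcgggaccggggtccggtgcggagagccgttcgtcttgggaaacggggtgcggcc
Gm24270: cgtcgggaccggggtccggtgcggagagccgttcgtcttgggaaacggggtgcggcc
Gm24187: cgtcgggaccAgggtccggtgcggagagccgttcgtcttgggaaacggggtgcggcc
Rn7sk: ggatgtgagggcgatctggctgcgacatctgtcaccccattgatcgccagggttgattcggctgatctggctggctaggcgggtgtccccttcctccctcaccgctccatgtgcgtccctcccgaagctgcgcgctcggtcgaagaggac
The longest run of identical bases on either strand was 13 between the transcripts of CT010467.1 and Lars2, 13 between CT010467.1 and Gm26917, 11 between CT010467.1 and Rn7sk, and 8 between CT010467.1 and Gm23935. The likeness of Gm23935, Gm24270 and Lars2 to ribosomal RNA of the large subunit was not examined here, so reads of these genes and reads of ribosomal RNA counted at them cannot be told apart, and the values of Gm23935, Gm24270, Lars2 and the small RNA share carry that limit. Reads that lie within the 57 bases of Gm23935 and Gm24270 cannot be told apart by sequence, and the bases around them were not compared. Another identical copy, Gm24245 on chromosome 4, was listed at 0 in every farnesol library. Gm42418, which overlaps CT010467.1 on the plus strand, and AY036118, which lies within CT010467.1, were listed at 0 in all 36 libraries.

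CT010467.1 ran from 5157 through a median of 12275 to 17624 CPM in the high libraries, against 1656, 2429 and 2087 CPM in low libraries 1, 2 and 3. Library 9, at 5157 CPM, was the high library nearest the threshold of 4000 CPM, and library 2, at 2429 CPM, was the low library nearest it. Vehicle libraries ranged from 1301 to 2816 CPM, untreated libraries from 1306 to 2486 CPM and naive libraries from 7047 to 10177 CPM. The 3 low farnesol libraries therefore lay within the range of the vehicle libraries, and all 7 high libraries lay above it. Because these values made the sets, the differences between the sets below are given as descriptions with no test.

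The high libraries had total counts of 15369778 to 19855132 and the low libraries of 19182254 to 23607662, so the sets also differed in depth, whose part in the differences was not tested. No label or file header names a batch for either set. Low library 2 was also poor in genes of the cerebellum: the cerebellum list (16 genes, scored as the mean log2 of CPM + 0.5) stood at 6.01 to 6.76 in the high libraries, and at 6.19, 2.87 and 5.68 in low libraries 1, 2 and 3. Cbln3, a synaptic organizer of cerebellar granule cells, measured 261.5 to 466.7 CPM in the high libraries, and 266.7, 3.02 and 166.5 CPM in low libraries 1, 2 and 3. Naive replicate 4 and untreated replicate 3 were low in cerebellar genes as well, with scores of 2.98 and 3.88. Neuronal label markers were present in all farnesol libraries, for example Snap25, a presynaptic fusion protein, at 1827 to 2247 CPM in the high libraries and 1947 to 2050 CPM in the low ones.

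The RNAs that stood furthest apart with CT010467.1 were noncoding, with Lars2 as the main coding gene. Levels are CPM of the column total, and differences are high minus low on the log2(CPM + 0.5) scale after TMM scaling, with the standard error (SE) over libraries. Lars2 (chr9:123366927-123462666), which encodes mitochondrial leucyl-tRNA synthetase, had 523.7, 661.7 and 917.5 CPM as lowest, median and highest of the high libraries, against 145.1, 226.8 and 240.8 CPM in low libraries 1, 2 and 3. The sets did not overlap, and the difference was 1.80 ± 0.27. Gm23935 had 1038, 1486 and 1978 CPM as lowest, median and highest of the high libraries, against 283.1, 443.2 and 414.5 CPM in low libraries 1, 2 and 3, a difference of 1.99 ± 0.26. Its copy Gm24270 ran from 12.5 to 33.7 CPM in the high libraries, against 3.69, 3.91 and 6.59 CPM in the low ones, a difference of 2.03 ± 0.31. Neither pair of ranges overlapped, and the more abundant copy carried nearly all the counts. Gm24187, with its single differing base, had 0.18 to 1.81 CPM in the high libraries and 0.42 to 0.59 CPM in the low ones, and its sets overlapped.

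Among structured RNAs, Rn7sk had 8.38, 14.05 and 22.45 CPM as lowest, median and highest of the high libraries, against 1.95, 3.81 and 5.08 CPM in low libraries 1, 2 and 3, a difference of 1.81 ± 0.40. Gm22009, annotated as a scaRNA, a class that guides modification of spliceosomal RNAs, had 7.21 to 13.17 CPM in the high libraries. It had 0.97, 1.25 and 0.15 CPM in the low ones, and its difference of 3.15 ± 0.46 was the largest of all separated genes. Its low values lie near the 0.5 CPM added before the log, so the size of this difference is uncertain. The gene passed the count filter through its values in the high libraries. Gm26917, a long noncoding gene that lies next to CT010467.1 on chromosome 17 (39843013-39846341, plus strand), had 33.3 to 63.5 CPM in the high libraries, against 15.3, 16.0 and 18.3 CPM in the low ones (1.50 ± 0.14). Rn7sk, Gm22009 and Gm26917 were each higher in all 7 high libraries than in all 3 low libraries. Gm22009, Gm23935, Gm24270, Gm24187, Gm26917, 9530059O14Rik, and the separated list members below were named after their values were seen.

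Malat1, a long noncoding RNA kept in nuclear speckles, was separated too, at 1253, 1740 and 2565 CPM as lowest, median and highest of the high libraries, against 1159, 1205 and 1072 CPM in low libraries 1, 2 and 3 (0.65 ± 0.14). Its pattern differed from that of CT010467.1 across the study, since the naive libraries, high in CT010467.1, had 810 to 1016 CPM of Malat1 and lay below all 3 low farnesol libraries. The order of libraries within the high set also differed between RNAs. Library 10 had the highest CT010467.1 (17624 CPM) and Rn7sk (22.45 CPM), while library 8, with 8791 CPM of CT010467.1, had the highest Malat1 (2565 CPM) and Gm23935 (1978 CPM) of the set. Library 9 had the lowest CT010467.1, Lars2, Gm23935, Rn7sk and Malat1 of the 7.

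**Figure D1:**
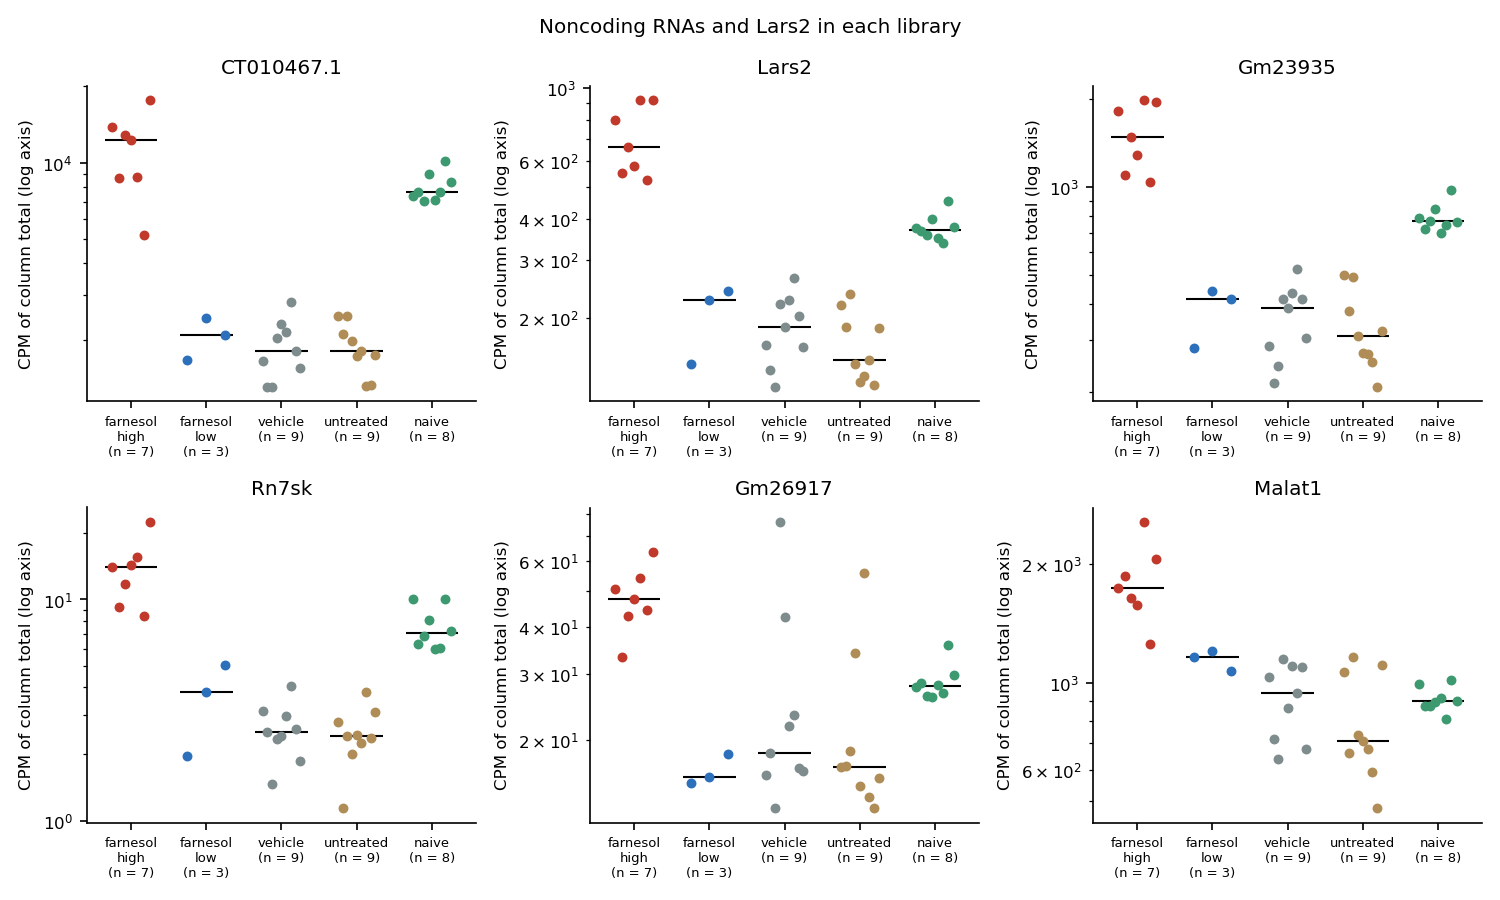
Level of 6 RNAs in every library (points, CPM of the column total, log axis) for farnesol high, farnesol low, vehicle, untreated and naive libraries, with group medians as bars. CT010467.1, Lars2, Gm23935, Rn7sk, Gm26917 and Malat1 are each higher in all 7 high farnesol libraries than in all 3 low ones, and the naive libraries stand high for CT010467.1 and low for Malat1.

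The mitochondrial ribosomal RNAs were not higher with CT010467.1. They had 2748 to 3459 CPM of mt-Rnr2 in the high libraries, against 3630, 3866 and 3672 CPM in the low ones (difference -0.21 ± 0.06, high libraries all lower), and 2059 to 2565 CPM of mt-Rnr1 in the high libraries, against 2668, 2715 and 2577 CPM in the low ones (-0.16 ± 0.05). Of 29 small structured RNA genes of a list (7SK, 7SL, RNase P, U snRNA, snoRNA and scaRNA genes), 27 were not among the genes measured. Scarna2 had 0.25 to 1.30 CPM in the high libraries and 0.25 to 0.42 CPM in the low ones. Among all 23 snoRNA genes measured, the sets overlapped at every gene, beside 4.86% of all genes separated in either direction. At that share a class of this size holds few separated genes. For cytosolic ribosomal protein genes, 0 of 82 were higher and 2 were lower (Rps27 and Rpl36a), a share close to the 2.51% lower over all genes measured, with a median difference of -0.05. Of 70 replication-dependent histone genes, whose messages lack a poly(A) tail, 54 were not measured. The 16 measured had 0 separated, beside the same 4.86% over all genes, and a median of -0.04, which leaves most of this class undescribed.

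Across all 18462 genes measured, all 7 high libraries lay above all 3 low libraries for 434 genes (2.35%) and below them for 464 genes (2.51%), 4.86% in either direction. These differences were mostly small. Leaving out CT010467.1, 687 of the 897 separated genes (76.6%) differed by less than 0.5 log2, with a median absolute difference of 0.31, while 18 genes were higher and 1 was lower by more than 1 log2. The median difference of all genes was -0.003. Sets with fewer libraries separate more easily, so the counts rise when a library is left out. Without library 1, 2, 3 or 9 there were 1211, 815, 890 and 692 higher genes. Without library 1, 2 or 3 there were 972, 1236 and 1008 lower genes.

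**Figure D2:**
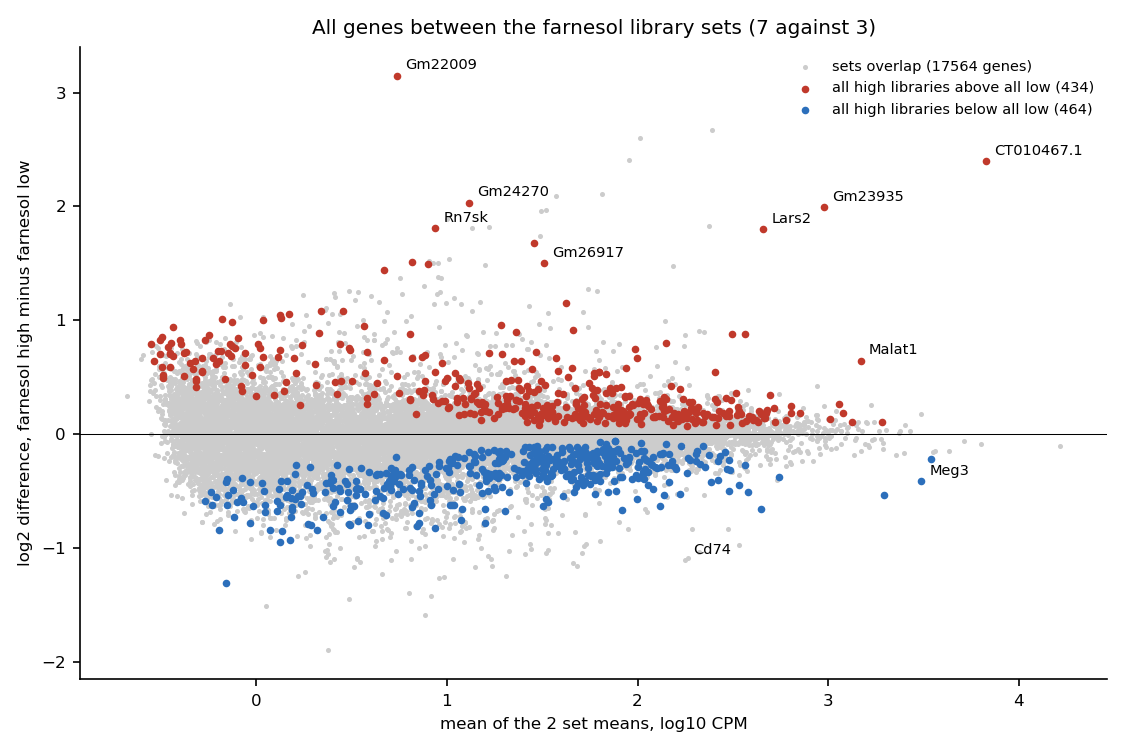
Log2 difference between farnesol high (n = 7) and farnesol low (n = 3) libraries against mean level (log10 CPM) for 18462 genes, with the 434 genes wholly higher in red and the 464 wholly lower in blue. CT010467.1, Lars2, Gm23935, Gm24270, Gm22009, Rn7sk and Gm26917 stand at or above 1.5 log2, and most other separated genes lie close to 0.

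Among the coding genes with the largest separated differences, Arhgef33, Aqp6 and Homer3 were lowest in the cerebellum-poor library 2: Homer3, a scaffold protein of cerebellar Purkinje cell synapses, measured 45.7 to 69.7 CPM in the high libraries, and 43.7, 9.75 and 34.6 CPM in low libraries 1, 2 and 3 (1.15 ± 0.65). Arhgef33 had 33.7 to 51.7 CPM in the high libraries, and 32.2, 2.45 and 19.4 CPM in the low ones (1.68 ± 1.05), and Aqp6, an aquaporin, had 8.52 to 15.02 CPM in the high libraries, and 8.35, 0.31 and 7.62 CPM in the low ones (1.50 ± 1.12). Calb1, Calb2 and Pvalb, calcium-binding proteins of inhibitory and Purkinje neurons, were also wholly higher in the high set and lowest in library 2. Sp5, a transcription factor, likewise had its lowest value there, at 0.16 CPM, and 1.41 to 2.23 CPM in the high libraries. The part of cerebellar content in these values was not tested.

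The other coding genes with large differences had the following levels, with library 2 again the lowest for Ldoc1, Lingo4 and Scnn1g. Ldoc1 measured 2.28 to 4.48 CPM in the high libraries, and 1.19, 0.94 and 1.51 CPM in the low ones (1.08 ± 0.17), and Lingo4, of the LINGO family of leucine-rich repeat proteins, measured 5.79 to 9.42 CPM in the high libraries, and 4.36, 1.04 and 2.15 CPM in the low ones (1.44 ± 0.48). Muc6, a secreted mucin, was at 1.52 to 3.43 CPM in the high libraries and 0.44 to 0.99 CPM in the low ones (1.05 ± 0.26). Scnn1g, an epithelial sodium channel subunit, was at 0.78 to 1.57 CPM in the high libraries and 0.16 to 0.54 CPM in the low ones (0.99 ± 0.21). The low values of Muc6 and Scnn1g lie near the 0.5 CPM added before the log, so the sizes of their differences are uncertain.

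The 10 largest lower differences of genes named by the rule lay between -0.79 and -1.31. Tbx21, the T-bet transcription factor of Th1 cells that also marks olfactory bulb projection neurons, had 0 to 0.82 CPM in the high libraries, and 1.23, 1.36 and 0.93 CPM in the low ones (-1.31 ± 0.24). Plcb2 and Gna15, a phospholipase C and a G protein alpha subunit of blood cells, were at 3.58 to 6.21 CPM and 2.01 to 3.58 CPM in the high libraries, and at 6.31 to 11.2 CPM and 3.70 to 5.96 CPM in the low ones. Their differences were -0.81 ± 0.24 for Plcb2 and -0.80 ± 0.20 for Gna15. Il1rl2, the receptor of interleukin-36, differed by -0.95 ± 0.15, Lat2, an adaptor of mast, B and myeloid cells, by -0.80 ± 0.36, and Rab20, a small GTPase, by -0.84 ± 0.29. Stk26, a kinase, had 5.01 to 6.90 CPM in the high libraries, and 13.3, 10.8 and 9.62 CPM in the low ones (-0.83 ± 0.14). Epyc, Pdzph1 and C4a differed by -0.84 ± 0.29, -0.79 ± 0.17 and -0.80 ± 0.19, and C4a, a near copy of C4b, shares sequence with it, so its counts are uncertain.

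Separated genes were counted by annotated gene type. Small RNA genes had 4 of 82 higher (4.88%) and 2 lower (2.44%), and long noncoding genes had 38 of 1957 higher (1.94%) and 46 lower (2.35%), beside 2.35% higher and 2.51% lower over all genes. Coding genes with an annotated retained-intron transcript had 175 of 8398 higher (2.08%) and 272 lower (3.24%), while coding genes without one had 192 of 6844 higher (2.81%) and 120 lower (1.75%). The median differences of these coding classes were -0.01 and 0.01. Pseudogenes had 2 of 455 higher and 4 lower.

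Gene span moved with the retained-intron annotation, so coding genes were also counted within 4 equal groups by span. In the shortest group (up to 10.4 kb), 1.35% of genes with a retained-intron transcript and 0.642% of those without were lower in the high set. In the second group these shares were 2.6% and 2.07%, in the third 4.24% and 2.8%, and in the longest (over 61 kb) 4.15% and 1.97%. The share of lower genes was larger for the retained-intron class in each group.

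As a share of all counts, the types moved little apart from small RNA. Small RNA genes took 0.122% to 0.226% of counts (median 0.170%) in the high libraries, against 0.047%, 0.063% and 0.061% in low libraries 1, 2 and 3. Without Gm23935 and Gm24270, small RNA genes took 0.0165% to 0.0254% in the high libraries and 0.0187% in each of the 3 low libraries, and the ranges overlapped. Long noncoding genes took 1.44% to 1.79% of counts in the high libraries and 1.61% to 1.70% in the low ones. Mitochondrial genes took 3.99% to 4.74% in the high libraries and 4.55% to 5.26% in the low ones, a mean difference of -0.44 percentage points, which was -0.27 without library 2. Coding genes with a retained-intron transcript took 59.01% to 60.04% in the high libraries and 59.8% to 60.6% in the low ones, and coding genes without one 32.5% to 33.2% in the high libraries and 32.5% to 32.6% in the low ones. CT010467.1 itself took 0.516% to 1.76% of counts in the high libraries and 0.166% to 0.243% in the low ones.

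The same shares were tested against CT010467.1 in groups that had no part in the division. Within each of the untreated (n = 9), vehicle (n = 9) and naive (n = 8) groups, 7 shares were correlated with log2 CT010467.1, which makes 21 relations, with 2-sided exact permutation p-values adjusted over all of them. The small RNA share rose with CT010467.1 in vehicle libraries (Pearson r = 0.934, exact permutation p = 0.000471, adjusted p = 0.0099; Spearman rho = 0.883, p = 0.00307, adjusted p = 0.0646). It also rose in untreated libraries (r = 0.918, exact permutation p = 0.00125, adjusted p = 0.0131; rho = 0.833, p = 0.00827, adjusted p = 0.0868). Without the 2 libraries farthest from the median, r was 0.856 in vehicle and 0.833 in untreated libraries. In naive libraries r was 0.882 (exact permutation p = 0.00786, adjusted p = 0.055; rho = 0.643, p = 0.0962), and without the 2 farthest libraries it was 0.206, so that relation rests on those libraries.

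Without Gm23935 and Gm24270 the small RNA share gave r = 0.431 in vehicle, 0.697 in untreated and 0.411 in naive libraries, with exact permutation adjusted p of 0.558, 0.163 and 0.558. None of the other relations had an adjusted p below 0.05 by either measure. The long noncoding share gave r of 0.397, 0.702 and 0.400 in vehicle, untreated and naive libraries (exact permutation adjusted p of 0.558, 0.163 and 0.558), the mitochondrial share r of -0.663, -0.591 and -0.343 (adjusted p of 0.185, 0.271 and 0.599), and the share of coding genes with a retained-intron transcript r of -0.104, 0.464 and 0.004 (adjusted p of 0.877, 0.549 and 0.991). Without the 2 libraries farthest from the median, r of the retained-intron share was 0.157, 0.773 and 0.752 in vehicle, untreated and naive libraries, and r of the mitochondrial share was -0.597, -0.786 and -0.862, so these values depend on which libraries are included.

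**Figure D3:**
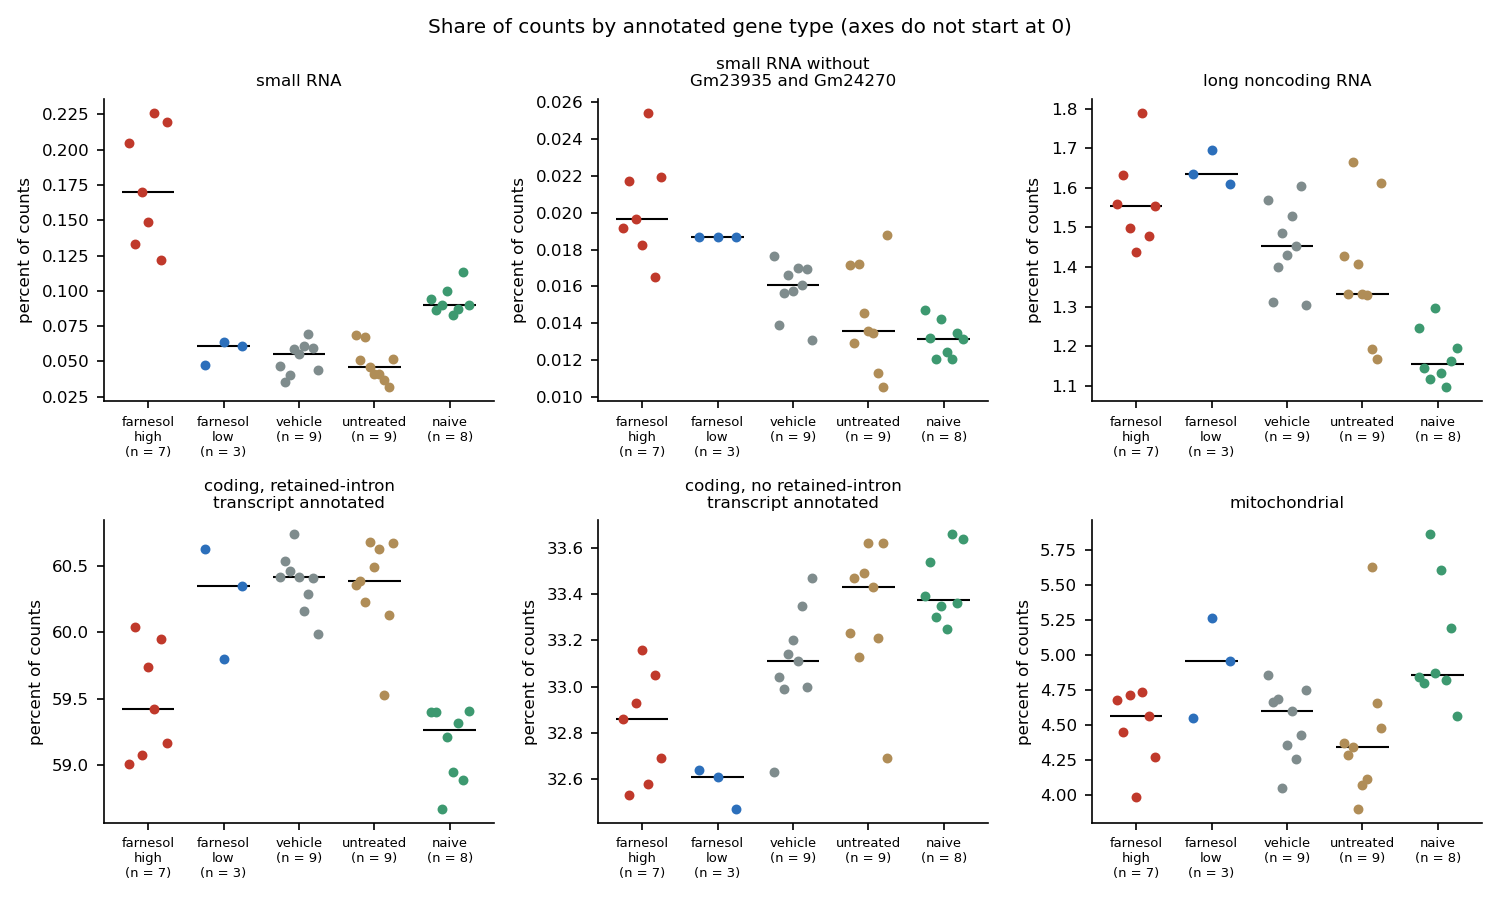
Percent of counts in 6 annotated gene classes for every library (points) with group medians (bars), and axes that do not start at 0. The small RNA share is higher in all 7 high farnesol libraries (0.122% to 0.226%) than in all 3 low ones (0.047% to 0.063%), and the ranges meet once Gm23935 and Gm24270 are left out.

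RNA processing genes with detained introns were lower in the high libraries. Of 28 genes of this list, 11 were wholly lower, 0 were higher, and the median difference was -0.27, with all 28 below 0, beside 2.51% lower and a median of -0.003 over all genes. Ogt, the O-GlcNAc transferase whose splicing responds to nutrient state, had 257.3, 271.4 and 332.7 CPM as lowest, median and highest of the high libraries, against 413.1, 391.1 and 379.3 CPM in low libraries 1, 2 and 3 (-0.44 ± 0.06). The kinase gene Clk4, which acts on SR splicing factors, had 51.0 to 63.5 CPM in the high libraries, against 74.0, 67.2 and 72.1 CPM in the low ones (-0.35 ± 0.04). The SR protein gene Srsf6 was at 106.2 to 131.5 CPM in the high libraries, against 141.8, 140.9 and 154.1 CPM in the low ones (-0.29 ± 0.05), and Rsrp1 at 282.6 to 373.2 CPM in the high libraries, against 407.4, 388.8 and 409.3 CPM in the low ones (-0.27 ± 0.05). Ddx5, Srrm2 and Son, the most abundant of the list beside Rsrp1, overlapped between the sets, with differences of -0.10 ± 0.08, -0.26 ± 0.08 and -0.19 ± 0.09. The list's score was 6.85 to 7.14 in the high libraries and 7.12 to 7.25 in the low ones, with vehicle libraries at 6.83 to 7.17.

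Nuclear long noncoding RNAs did not move together. Of 19 measured, Malat1 alone was wholly higher, and Meg3, Snhg11, Miat, Gas5 and Ftx were wholly lower, beside 2.35% higher and 2.51% lower over all genes. Meg3, an imprinted RNA of neurons, had 2276, 2523 and 3141 CPM as lowest, median and highest of the high libraries, against 3392, 3752 and 3403 CPM in low libraries 1, 2 and 3 (-0.41 ± 0.09). Snhg11, a snoRNA host gene, had 1309 to 1849 CPM in the high libraries, against 2287, 2389 and 2285 CPM in the low ones (-0.54 ± 0.07). Vehicle libraries spanned 2041 to 3444 CPM of Meg3 and 1400 to 2203 CPM of Snhg11.

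Farnesyl pyrophosphate, from which farnesol is formed, is an intermediate of the mevalonate pathway. Of its 25 genes, 3 were wholly higher and 0 lower, beside 2.35% and 2.51% over all genes. Differences of 22 genes were above 0, and the median difference was 0.16. The list's score was 5.12 to 5.28 in the high libraries and 4.87, 5.13 and 5.11 in low libraries 1, 2 and 3, so the sets overlapped. Median changes of these genes against vehicle were -0.02 in the high set and -0.18 in the low set. Insig1, which restrains sterol synthesis, had 81.6 to 94.3 CPM in the high libraries, against 60.3, 66.0 and 74.5 CPM in the low ones (0.41 ± 0.09), and Stard4, a sterol carrier, 39.8 to 48.5 CPM in the high libraries, against 33.5, 32.5 and 34.8 CPM in the low ones (0.36 ± 0.05). Nuclear genes of the respiratory chain had 6 of 87 higher and 1 lower, beside the same background, with a median of 0.09, and the 13 mitochondrially encoded messages had 0 separated and a median of -0.15.

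The scores of the inflammatory lists overlapped between the sets. In whole-brain RNA, fewer cells of a type and less RNA per cell cannot be told apart. Cd74, which chaperones MHC class II molecules, had 28.6, 59.9 and 184.1 CPM as lowest, median and highest of the high libraries, and 214.9, 26.8 and 571.7 CPM in low libraries 1, 2 and 3. Low library 2 lay below all high libraries and low libraries 1 and 3 above all of them, and the difference was -1.10 ± 1.34. Without library 2 the difference was -2.32, and without library 3 it was -0.15. Vehicle libraries ranged from 17.3 to 966.5 CPM and naive libraries from 5.44 to 9.30 CPM.

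Over all genes, 4.86% were separated in either direction. At that share lists of this size hold few separated genes, so counts of 0 or 1 do not set them apart. Of 10 MHC class II genes, 0 were separated, with a median of -0.80 and all 10 below 0. The interferon-induced GTPases, which act against intracellular pathogens, had 0 of 18 separated and a median of -0.95, again with all 18 below 0. With all libraries the score differences were -0.80 for MHC class II and -0.88 for interferon-induced GTPases. Without library 3 they were -0.11 and -0.22, and without library 2 they were -1.52 and -1.48. Igtp had 7.61 to 74.8 CPM in the high libraries, and 43.1, 15.2 and 148.9 CPM in low libraries 1, 2 and 3. T cell genes had 0 of 12 separated (median -0.45), neutrophil genes 0 of 14 (-0.33), chemokine genes 0 of 13 (-0.60), acute phase genes 0 of 9 (-0.26) and B cell and plasma cell genes 0 of 6 (-0.25). Complement genes had 1 of 17 lower (C4a) and a median of -0.58, and monocyte and macrophage genes 1 of 16 lower and a median of -0.56. That gene was Fn1, the matrix protein fibronectin, at 73.6 to 92.9 CPM in the high libraries, against 112.9, 100.1 and 119.1 CPM in the low ones.

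Disease genes varied widely within each set. The MHC class II score was 2.14 to 3.63 in the high libraries and 3.69, 2.17 and 4.97 in low libraries 1, 2 and 3. The neutrophil alarmin gene S100a9 had 7.87 to 14.3 CPM in the high libraries and 16.8, 24.1 and 6.79 CPM in the low ones, so the low library poorest in S100a9 was the richest in Cd74. Lcn2, an acute phase protein, had 28.8 to 65.2 CPM in the high libraries and 44.4 to 60.1 CPM in the low ones (-0.26 ± 0.22).

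Of 14 homeostatic microglia genes, 3 were lower (Sall1, P2ry12 and Gpr34), beside 2.51% over all genes, with a median of -0.40. P2ry12, a purinergic receptor that marks resident microglia, had 18.9 to 26.8 CPM in the high libraries, against 29.6, 27.8 and 32.5 CPM in the low ones (-0.43 ± 0.09), and Sall1, a transcription factor of microglial identity, 21.5 to 29.2 CPM in the high libraries, against 40.2, 34.2 and 42.9 CPM in the low ones (-0.63 ± 0.10). Aif1, the pan-microglial protein Iba1, overlapped at 4.45 to 10.8 CPM in the high libraries and 7.30 to 18.7 CPM in the low ones. Reactive astrocyte genes had 1 of 20 lower (Ggta1) and a median of -0.33, and Gfap, the astrocyte intermediate filament, had 274 to 652 CPM in the high libraries and 574.4, 284.3 and 1043 CPM in the low ones (-0.40 ± 0.57). Myelin and oligodendrocyte genes had 0 of 22 separated and a median of 0.17, and Mbp, myelin basic protein, had 2765 to 3655 CPM in the high libraries and 2411 to 3144 CPM in the low ones.

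Neuron and regional lists were also compared between the sets. The cerebellum and striatum scores overlapped, and the part of brain region content in them was not tested. Cerebellar genes had 1 of 16 higher (Calb1), with a median of 1.37, and without library 2 the score difference fell to 0.44, against 1.46 with it. Striatal genes had 0 of 12 separated and a median of -0.51, with scores of 4.74 to 6.09 in the high libraries and 6.36, 6.46 and 5.76 in low libraries 1, 2 and 3. Excitatory neuron genes had 1 of 22 higher, 1 lower (Gria2) and a median of -0.01, beside 2.35% higher and 2.51% lower over all genes. Inhibitory neuron genes had 3 of 15 higher, the Calb1, Calb2 and Pvalb named above, all lowest in library 2. Of these 15 differences only 6 were above 0, and their median was -0.07.

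The remaining lists had at most 1 separated gene in a direction, beside 2.35% higher and 2.51% lower over all genes. Immediate early genes had 1 of 21 lower (Egr3, at 84.5 to 122.3 CPM in the high libraries and 132.4 to 184.5 CPM in the low ones), heat shock and unfolded protein genes 1 of 20 lower (Hsph1), homeostatic astrocyte genes 1 of 15 higher, and olfactory bulb genes 1 of 11 higher and 1 lower. The endothelial activation (13 genes), glucocorticoid response (17), oligodendrocyte precursor (10), brain endothelium and pericyte (16), choroid plexus and ependyma (12), erythrocyte (8) and pituitary (5) lists had 0 separated genes, with medians between -0.30 and 0.21. Pituitary hormone genes, which appear where a dissection keeps the gland, reached 3.22 CPM of Gh in the high libraries and 7.03 CPM in the low ones.

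**Figure D4:**
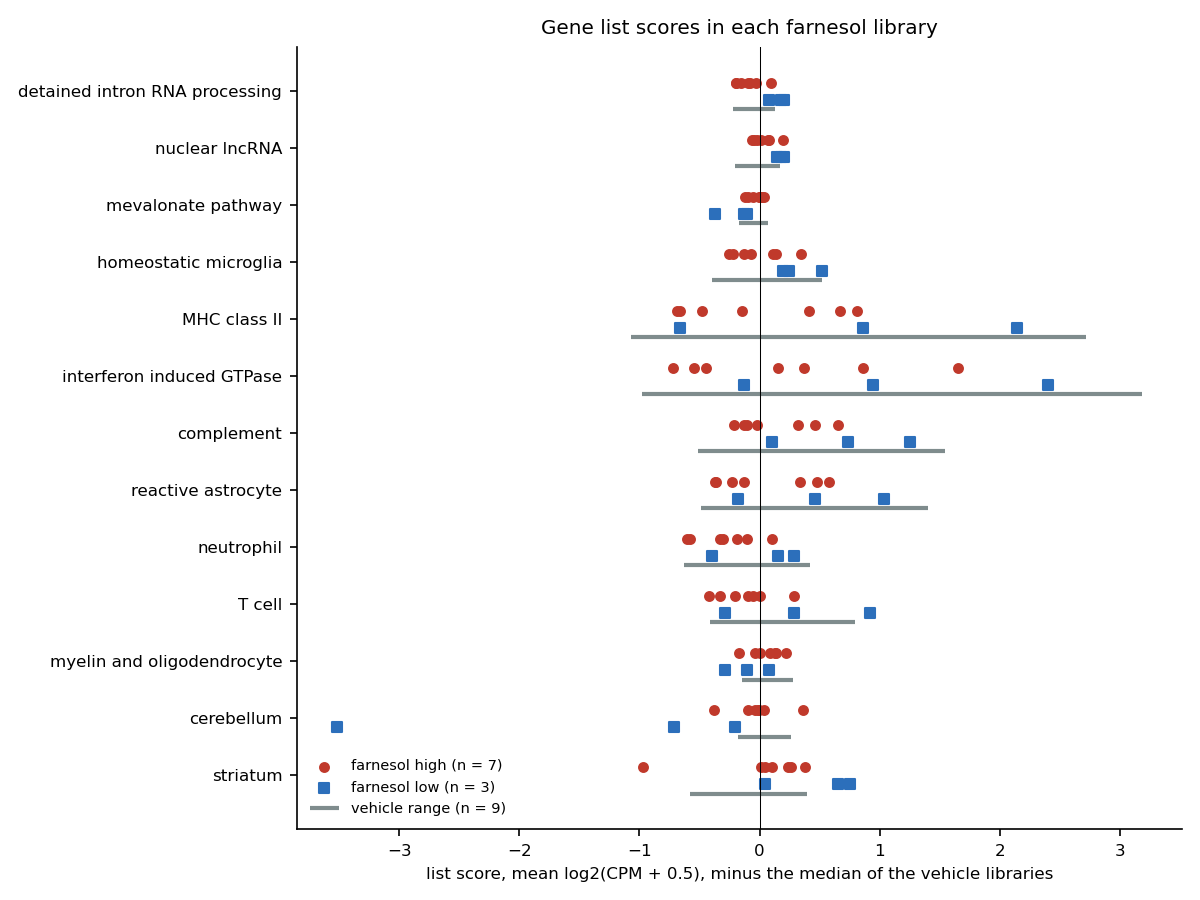
Scores of 13 gene lists (mean log2(CPM + 0.5), minus the vehicle median) in each farnesol high library (circles, n = 7) and farnesol low library (squares, n = 3), with the range of the 9 vehicle libraries as a line. The MHC class II scores of the high libraries (2.14 to 3.63 before the median is taken off) overlap that of low library 2 (2.17) and lie below those of low libraries 1 and 3, and the cerebellum score of low library 2 stands apart from all others.

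The change of every gene along CT010467.1 was then tested in the 26 untreated, vehicle and naive libraries, which the division did not use. The model took a mean for each group and a common slope per doubling of CT010467.1, tested by edgeR's quasi-likelihood method with Benjamini-Hochberg adjustment over 17941 genes. It called 4 genes up (0.0223%) and 4 down (0.0223%), together 0.0446%, while 2516 genes (14%) had an unadjusted p below 0.05. Gm23935 rose by 1.07 ± 0.09 log2 per doubling (edgeR adjusted p = 7.15e-08), Lars2 by 0.80 ± 0.10 (adjusted p = 7.8e-05) and Gm24270 by 1.52 ± 0.21 (adjusted p = 0.000333). These 3 RNAs kept their calls in every fit that left out a single library, while the count of calls ran from 4 to 478, the 478 without vehicle replicate 4.

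The other called slopes were of genes that did not separate the farnesol sets. Plekha7, an adherens junction protein, rose by 0.48 ± 0.09 (edgeR adjusted p = 0.0333), and its CPM of 26.4 to 29.1 in the high farnesol libraries overlapped 28.3 to 34.9 in the low ones. Cxcl1, a neutrophil chemokine, fell by 2.60 ± 0.41 (adjusted p = 0.00332), Sele, the endothelial adhesion molecule E-selectin, by 3.51 ± 0.68 (adjusted p = 0.0484), Xbp1, a factor of the unfolded protein response, by 0.36 ± 0.07 and Phyh, a peroxisomal oxidase of phytanic acid, by 0.28 ± 0.05 (adjusted p = 0.0484 for each). Cxcl1 and Sele were at 0 to 0.13 CPM in naive brains. The calls of Sele and Xbp1 were lost in 23 and 27 of 35 alternatives and that of Plekha7 in 12. RLE scaling gave Sele and Xbp1 an edgeR adjusted p of 0.052 each, while DESeq2 gave Sele 0.204 and Xbp1 0.00317. With log2 Cd74, a measure of disease degree, as a second covariate, the slopes were -3.17 for Sele, -0.29 for Xbp1 and 0.39 for Plekha7, with edgeR adjusted p of 0.0934, 0.335 and 0.263, and those of Lars2, Gm23935, Gm24270 and Cxcl1 kept their calls.

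Rn7sk and Malat1 were not called along CT010467.1 in these libraries. Their slopes were 0.26 ± 0.24 (edgeR adjusted p = 0.653) and 0.69 ± 0.15 (adjusted p = 0.133), and those of Gm22009, 9530059O14Rik and Gm26917 were 1.98 ± 0.61 (adjusted p = 0.186), 0.90 ± 0.30 (adjusted p = 0.2) and 0.94 ± 0.42 (adjusted p = 0.321). No detained-intron, MHC class II, interferon GTPase, T cell or neutrophil gene of the lists had a called slope, beside 0.0446% of all genes. At that share lists of this size would hold few or no calls. Cxcl1 and Sele, called above, belong to the chemokine and endothelial activation lists. The median slopes of the detained-intron, MHC class II, interferon GTPase, T cell and neutrophil lists were 0.09, -0.98, -1.08, -0.39 and -0.56 log2 per doubling. Over all genes the median slope was -0.0008.

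The set differences and these slopes were weakly related. Across the 17780 genes with both values the set difference and the slope had Pearson r = 0.182 and Spearman rho = 0.050, as a description across genes, which are not independent and share library depth. Of 410 genes wholly higher in the high set, 210 (51.2%) had a slope above 0, beside 49.7% of all genes. Of 463 wholly lower, 192 (41.5%) had a slope below 0. Most of the wholly lower genes therefore had slopes opposite in direction to their set difference. Of the 17 genes higher by more than 1 log2 with a slope, 3 had called slopes, which were Gm23935, Gm24270 and Lars2.

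**Figure D5:**
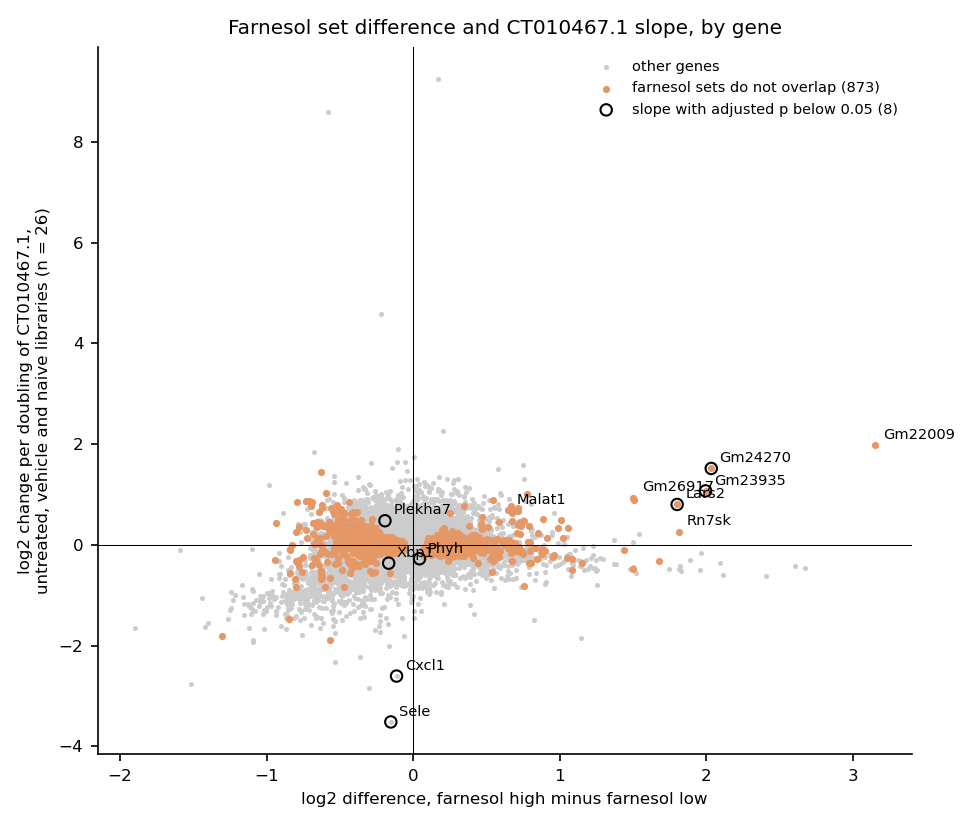
For each gene, the log2 difference between farnesol high and low libraries (x axis) and the log2 change per doubling of CT010467.1 in 26 untreated, vehicle and naive libraries (y axis), with the 410 higher and 463 lower genes whose farnesol sets do not overlap in orange and the 8 called slopes circled. Gm23935, Gm24270 and Lars2 are the only circled genes at the right, and other orange genes lie on both sides of 0 on each axis.

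Each farnesol set was also compared with the vehicle libraries, in a single edgeR fit of all 36 libraries and 19737 genes. The sets were chosen on CT010467.1, so values of genes that go with it are not independent of that choice, and both comparisons share the vehicle libraries. The high set differed from vehicle in 93 genes (0.471%), 87 higher (0.441%) and 6 lower (0.0304%), where the higher genes include CT010467.1 itself, whose call the choice of the sets fixed, and 1452 genes had an unadjusted p below 0.05. Without library 8 or library 10 the high set gave 44 and 52 genes. The low set differed in 1 gene (0.00507%), Pdzd2, and 2124 genes had an unadjusted p below 0.05, while DESeq2 called 71 genes in the low set and an edgeR fit of farnesol and vehicle libraries alone called 36. A call in one set and not in the other does not show that the sets differ, which was not tested.

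Most of the 87 higher genes were not protein-coding. They held 7 of 125 small RNA genes, 22 of 2367 long noncoding genes and 26 of 858 genes of other types, mostly loci awaiting experimental support, beside 14 of 8528 coding genes with and 16 of 7193 without a retained-intron transcript. Lars2 was higher by 1.93 ± 0.15 in the high set (edgeR adjusted p = 2.8e-11) and by 0.12 ± 0.20 in the low set (adjusted p = 0.866). Rn7sk was higher by 2.41 ± 0.21 in the high set (adjusted p = 2.65e-10) and by 0.47 ± 0.28 in the low set (adjusted p = 0.55). Malat1 was higher by 1.01 ± 0.14 in the high set (adjusted p = 8.09e-05) and by 0.33 ± 0.19 in the low set (adjusted p = 0.53). Lncpint, a long noncoding RNA induced by p53, had 3.02 to 6.13 CPM in the high set, 2.03 to 2.30 CPM in the low set and 1.13 to 2.40 CPM in vehicle libraries.

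Among coding genes, Tcp11l1 had 51.0 to 68.5 CPM in the high set, 27.4 to 40.9 CPM in the low set and 31.5 to 44.0 CPM in vehicle libraries, a change of 0.71 ± 0.09 for the high set (edgeR adjusted p = 7.08e-06) and of -0.20 ± 0.12 for the low set (adjusted p = 0.573). Apold1, an endothelial early response gene, was lower, at 4.13 to 6.15 CPM in the high set and 5.78 to 15.2 CPM in vehicle libraries (adjusted p = 0.012). The other lower genes named by the rule were Nfil3, a circadian and immune transcription factor, at -0.45 ± 0.10 (adjusted p = 0.0298), Cenpv, a centromere protein, at -0.30 ± 0.07 (adjusted p = 0.0257), Sfpq, a splicing factor of paraspeckles, at -0.24 ± 0.05 (adjusted p = 0.0121) and Rbm28, a nucleolar protein, at -0.24 ± 0.05 (adjusted p = 0.0295). In the low set Sfpq and Rbm28 measured 0.08 ± 0.07 and 0.13 ± 0.07 against vehicle, and Nfil3 measured -0.48 ± 0.14 (edgeR adjusted p of 0.694, 0.512 and 0.183).

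Pdzd2, a PDZ domain protein, was the gene called in the low set, at 117.1, 110.4 and 79.4 CPM in low libraries 1, 2 and 3 and 55.4 to 79.8 CPM in vehicle libraries, a change of 0.62 ± 0.11 (edgeR adjusted p = 0.017). Library 3 lay within the vehicle range. Without library 2 the change was 0.55 with an adjusted p of 0.298, and without library 1 it was 0.51 with an adjusted p of 0.0871. In the high set Pdzd2 had 57.1 to 71.0 CPM and a change of -0.07 ± 0.08 against vehicle.

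No gene of the MHC class II, interferon GTPase, T cell, neutrophil, complement or myelin lists was called against vehicle in either farnesol set. Over all genes 0.471% were called in the high set and 0.00507% in the low set. At these shares lists of this size would hold few or no calls. Cd74 differed from vehicle by -1.24 ± 0.63 in the high set (edgeR adjusted p = 0.697) and by 0.43 ± 0.78 in the low set (adjusted p = 0.881). Median changes against vehicle were -0.94 in the high set and 0.39 in the low set for MHC class II genes, -0.73 and 0.34 for interferon GTPases, and -0.10 and 0.18 for detained-intron genes, beside -0.007 and 0.007 over all genes.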

How the data were processed

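What the authors deposited is a single matrix of unnormalized counts, 54532 Ensembl gene rows by 36 library columns. Reads were mapped with STAR 2.5 to mm10, per the submitters' processing notes, and the labels' extract protocol also names Kallisto. The counting tool, its annotation and whether strand was used are not stated in the sources at hand, so overlapping and near-identical genes are uncertain. Names, types and coordinates came from GENCODE M21 (GRCm38), which named 54495 identifiers with 99.99% of counts. Depth was 14705992 to 24211092 counts per library. The labels number the libraries within groups, and p-values measure the spread between these libraries.

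The rule for the sets, their members and the 36 gene lists were chosen with earlier results of these data known. Levels are CPM of the column total. Set differences used log2(CPM + 0.5) with TMM factors over the 10 farnesol libraries (genes kept by filterByExpr, minimum count 10, minimum total 15), and "wholly higher" or "lower" means that all libraries of a set lay beyond all of the other on that scale. Slopes and vehicle comparisons used glmQLFit and glmQLFTest of edgeR 4.0.16 (R 4.3.3), called at an adjusted p below 0.05. A list's score is the mean of its genes' log2 values. SE in edgeR fits is the log2 change over the square root of F. Shares were correlated by exact permutation (Python 3.11.15), and figures were drawn with matplotlib 3.10.9. The steps were tested on simulated data. DESeq2 1.42.0 was an alternative, beside RLE scaling, coding library size, other count filters, a replicate block, Cd74 as a term, fewer groups and leaving out each library.

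Genes named follow a rule: CT010467.1, Lars2, Rn7sk, Cd74, Lcn2, Gfap, Aif1, Mbp and S100a9, the 10 largest separated differences each way with at least 1 CPM in a set, up to 4 of highest level per list, the smallest p along CT010467.1, and up to 5 of smallest p each way against vehicle, without predicted or clone names. Separated members of lists were added after their values were seen. Some genes that the rule names are not reported here.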

Additional observations from a re-analysis of the deposited data

Results flagged for a closer look

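Dixon's test was applied to 133 sets of values in the farnesol libraries and marked 9, where chance marks about 1 in 20. In the 7 high libraries, replicate 6 stood apart in the olfactory bulb score (3.235), and replicate 5 in the striatum score (4.735), in Arhgef33 (51.67 CPM), in Aqp6 (15.02 CPM) and in Sfpq (206.3 CPM). Over all 10 farnesol libraries, replicate 5 stood apart again in the striatum score (4.735), replicate 2 in the cerebellum score (2.875), replicate 1 in the mevalonate pathway score (4.87) and replicate 3 in the T cell score (1.359). No value of CT010467.1, Lars2, Gm23935, Rn7sk or Malat1 in the high libraries was marked.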

How the results depend on the processing

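The counts of separated genes changed most with the 3 low libraries. They were 434 higher and 464 lower, with 483 to 1211 higher and 501 to 1236 lower when a farnesol replicate was left out. Without replicate 1 they were 1211 and 972, without replicate 2 815 and 1236, and without replicate 3 890 and 1008, since a smaller set separates more easily, and without replicate 9 there were 692 higher genes. With Cd74 as a term they were 812 higher and 877 lower. The Cd74 difference was -2.32 without replicate 2 and -0.146 without replicate 3. The differences of Lars2, Rn7sk, Gm23935 and Malat1 moved by less than the replicate spread in every alternative, and so did the shares of gene types, with the mitochondrial difference of -0.437 percentage points between -0.624 and -0.268 when a replicate was left out.

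Along CT010467.1, 8 genes were called. RLE scaling gave 5, no count filter 13 and DESeq2 55, while library size from coding genes, the untreated and vehicle libraries alone, Cd74 as a covariate and leaving out libraries low in cerebellar genes each gave 4. The last was chosen after seeing the data. Leaving out a replicate gave 4 to 478, and the 478 came without vehicle replicate 4, whose MHC class II score was the highest of its group (5.544). The cause was not tested.

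Against vehicle, the 93 genes of the high set were 51 with a mean of at least 1 CPM and 44 to 105 with a farnesol replicate left out, 44 without replicate 8 and 52 without replicate 10. The 1 gene of the low set was 71 with DESeq2, 36 with farnesol and vehicle libraries only, 0 without libraries low in cerebellar genes (added after seeing the data) and 0 to 2 with a replicate left out. The cause was not tested.

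Untreated, vehicle and naive libraries of the same number deviated with mean correlations of -0.207 to 0.112. No pairing by number was seen, though 2 or 3 libraries per number cannot settle it. Farnesol libraries were not part of this comparison. A replicate block gave 6 genes along CT010467.1, 38 in the high set and 0 in the low set against vehicle. Of 29 structured RNA genes, 27 were not among the genes measured, and the part of depth in this was not tested.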
